A study of Mus musculus with 8 samples.

Results

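Of 24062 genes counted in mouse embryonic stem cells (mESCs), 6 met a ratio rule for being raised by UNC0642 but not by Setdb1 loss. These were Nxf3, Samd7, Cd3e, Klb, Ptprtos and Gm3139. UNC0642 is an inhibitor of the catalytic activity of G9a and GLP. The genes were chosen on CPM (a count divided by the library total, times 1000000) with 0.5 CPM added. UNC0642-treated mESCs had to be at 4 times WT mESCs or more in both replicate pairs, and Setdb1 KO mESCs under 2 times WT mESCs in both pairs. Symbols of 11 repetitive or clustered gene families, such as Zscan4, Prame and Olfr, were left out. The levels in WT, UNC0642-treated and Setdb1 KO mESCs therefore made the choice and are given as a description. The libraries of UNC0642-treated Setdb1 KO mESCs, in which both treatments were combined, took no part in it.

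G9a and GLP, encoded by Ehmt2 and Ehmt1, form a complex that places mono- and dimethylation on lysine 9 of histone H3, and its loss in mESCs derepresses germline genes and some endogenous retroviruses. SETDB1 places trimethylation on the same residue and is brought to many retroviral sequences by KRAB zinc finger proteins and TRIM28. Some of the chosen genes are known for roles outside stem cells. Nxf3 is an X-linked member of the nuclear RNA export factor family, whose member Nxf1 is the general mRNA exporter. Samd7 encodes a SAM domain protein of photoreceptors that works with Polycomb proteins in gene silencing. Cd3e encodes a signalling chain of the T cell receptor complex. Klb encodes beta-Klotho, the co-receptor through which FGF21 and FGF15 act on FGF receptors. Ptprtos is an antisense noncoding RNA of the Ptprt locus, and Ptprt encodes a receptor-type protein tyrosine phosphatase. Gm3139 belongs to the Prame family, and its current RefSeq symbol begins with Pramel although the symbol in the counted annotation does not.

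Poly(A) RNA was sequenced from 4 conditions with 2 replicates each. All 8 libraries came from the single line #33-6, whose Setdb1 allele can be deleted by 4-hydroxytamoxifen (4-OHT), so WT mESCs are the same cells without 4-OHT or inhibitor. UNC0642-treated mESCs received 2 µM inhibitor for 3 days and no 4-OHT. Setdb1 KO mESCs received 4-OHT at 800 nM over 5 days. For the combination of both, UNC0642-treated Setdb1 KO mESCs, the labels give 800 nM 4-OHT for 2 days and then 2 µM UNC0642 for 3 days, whereas the study's methods give 5 days of 4-OHT for both KO conditions. Exposure to 4-OHT and loss of Setdb1 cannot be told apart, because every library with 4-OHT also carried the deletable allele. The study's methods call the replicates biological and do not say whether they were grown as pairs.

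Total counts were between 11702590 and 26807807 per library, and genes took between 82.9% and 97.2% of them, the rest being transposable element subfamilies. A floor of 3 counts was 0.112 to 0.256 CPM. Setdb1 was at 166 and 140 CPM in WT, 122 and 104 in UNC0642-treated, 41.7 and 56.5 in Setdb1 KO mESCs and 49.5 and 35.3 with both treatments. The log2 fold change of Setdb1 in the KO was -1.59 (SE 0.44, edgeR adjusted p = 0.181, or 0.0164 with the replicate number as a block). Pluripotency markers, such as Pou5f1 and Nanog, were summed at 3554 to 6840 CPM and none of the 10 was called in any comparison. Two-cell embryo genes, which none of the 6 genes belongs to in the list used, were summed at 20.3 and 52.3 CPM in WT, 1090 and 489 in UNC0642-treated, 487 and 244 in Setdb1 KO mESCs and 1725 and 1104 with both treatments, so this list was above WT in all 3 treated conditions. Its part in the levels of the 6 genes was not tested.

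The genes lie on 5 chromosomes in GRCm38 (GENCODE M21): Nxf3 at chrX:136072099-136085255, Samd7 at chr3:30746293-30767174, Cd3e at chr9:44998740-45009627, Klb at chr5:65348314-65384007, Ptprtos at chr2:162390813-162393945 and Gm3139 at chr5:94526287-94546423. Klb and Gm3139 share a chromosome but stand 29.2 Mb apart. Ptprtos lies inside an intron of Ptprt on the opposite strand and touches none of its exons. Cd3e shares exonic sequence with Gm48719. The study ran the counting tool with default parameters and does not name its strand setting, so reads of such overlapping genes cannot be assigned with certainty. Gm3139 has close Prame paralogs among which reads can be shared, and its values are uncertain in that respect.

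Promoters of 4 of the 6 genes were found in RefSeq (GRCm38.p6), from 250 bases before to 50 bases after the start, and are shown so that the start sites of genes of unlike function that were high in the same libraries can be compared. CG dinucleotides, the sites of DNA methylation, are in capitals.
Samd7 promoter: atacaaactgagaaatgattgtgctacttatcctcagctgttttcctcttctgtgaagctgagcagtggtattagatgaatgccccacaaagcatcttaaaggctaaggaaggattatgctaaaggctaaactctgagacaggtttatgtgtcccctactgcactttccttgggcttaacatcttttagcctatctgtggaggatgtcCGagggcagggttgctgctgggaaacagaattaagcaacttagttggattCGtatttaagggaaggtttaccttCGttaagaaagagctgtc
Cd3e promoter: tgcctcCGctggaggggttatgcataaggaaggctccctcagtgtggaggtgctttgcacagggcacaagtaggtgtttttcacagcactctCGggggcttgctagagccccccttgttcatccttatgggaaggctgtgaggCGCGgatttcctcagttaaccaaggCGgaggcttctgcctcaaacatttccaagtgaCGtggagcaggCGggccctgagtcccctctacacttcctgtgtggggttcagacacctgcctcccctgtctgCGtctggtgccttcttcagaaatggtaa
Klb promoter: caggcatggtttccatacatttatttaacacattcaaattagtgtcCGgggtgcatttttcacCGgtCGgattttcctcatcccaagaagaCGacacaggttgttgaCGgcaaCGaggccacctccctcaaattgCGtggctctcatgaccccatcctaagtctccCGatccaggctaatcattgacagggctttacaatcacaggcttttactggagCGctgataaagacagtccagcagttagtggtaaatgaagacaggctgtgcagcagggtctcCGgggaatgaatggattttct
Ptprtos promoter: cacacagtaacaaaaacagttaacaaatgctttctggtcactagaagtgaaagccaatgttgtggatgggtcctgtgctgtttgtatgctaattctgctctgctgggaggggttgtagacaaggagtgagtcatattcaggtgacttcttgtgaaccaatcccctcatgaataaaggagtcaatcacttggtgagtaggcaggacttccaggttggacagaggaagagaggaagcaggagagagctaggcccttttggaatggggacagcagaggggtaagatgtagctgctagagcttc
The windows are chr3:30746043-30746342 on the plus strand for Samd7, chr9:45009562-45009861 on the minus strand for Cd3e, chr5:65348161-65348460 on the plus strand for Klb and chr2:162390563-162390862 on the plus strand for Ptprtos. They hold 3, 8, 10 and 0 CG dinucleotides, while the median over 32817 promoters of the same length was 7. The genes thus had CG-poor and CG-average promoters, and none of them reached the upper quartile of 20. The E-box CACGTG was in 7.15% of all these promoters and the E2F core TCCCGC in 19.97%, searched on both strands, and neither string was in the 4 windows.

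Nxf3 had the highest counts of the group. It was at 1.54 and 0.955 CPM in WT, 12.01 and 12.24 in UNC0642-treated, 0.410 and 0.426 in Setdb1 KO mESCs and 9.75 and 11.7 with both treatments. All 4 libraries with inhibitor lay above all 4 without it, and both Setdb1 KO libraries lay below both WT libraries. Both KO libraries were below both WT libraries for 15.9% of all genes tested, and Cd3e was another of them. The ratios of Nxf3 to WT that chose it were 6.14 and 8.75 under UNC0642 and 0.447 and 0.637 in the KO.

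Samd7 was at 0 and 0.199 CPM in WT, 2.68 and 2.73 in UNC0642-treated, 0.224 and 0 in Setdb1 KO mESCs and 2.27 and 3.54 with both treatments. It was at or near the floor without inhibitor, with 5 counts over both WT libraries and 6 over both KO libraries. With inhibitor the libraries with and without 4-OHT overlapped. For all 6 genes the 4 libraries with inhibitor lay above the 4 without it, as they did for 316 (2.06%) of all genes tested.

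Cd3e was at 0.940 and 1.31 CPM in WT, 5.81 and 7.92 in UNC0642-treated, 0.373 and 0.731 in Setdb1 KO mESCs and 3.78 and 4.38 with both treatments. Every library with inhibitor was above every library without it, and both combined libraries were below both UNC0642-treated libraries. Klb was at 0 and 0.836 CPM in WT, 2.82 and 5.19 in UNC0642-treated, 0.149 and 0.244 in Setdb1 KO mESCs and 1.43 and 2.29 with both treatments. By group means its order was that of Cd3e, at lower levels, and the 2 WT libraries stood far apart with 0 and 21 counts.

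Ptprtos was at 0.0855 and 0.796 CPM in WT, 6.78 and 4.71 in UNC0642-treated, 0.298 and 0.0609 in Setdb1 KO mESCs and 4.54 and 4.30 with both treatments. Its WT libraries also differed, with 1 and 20 counts, and they overlapped the KO libraries. Gm3139 was at 0 and 0.0398 CPM in WT, 2.64 and 3.20 in UNC0642-treated, 0.261 and 0.244 in Setdb1 KO mESCs and 2.27 and 5.33 with both treatments. None of the 6 genes was called in the KO over WT, where edgeR called 0.731% of all genes tested in either direction, and this contrast made the choice. Both KO libraries of Gm3139 were above both WT libraries, at 7 and 4 counts against 0 and 1. Its log2 fold change there was 3.13 (SE 1.07, edgeR unadjusted p = 0.0161, adjusted p = 0.329). The ratio of its summed KO to WT levels was 9.37, with an exact 95% counting interval of 1.36 to 403, and its place under the KO limit therefore rests on the 0.5 CPM added to every value.

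**Figure D1:**
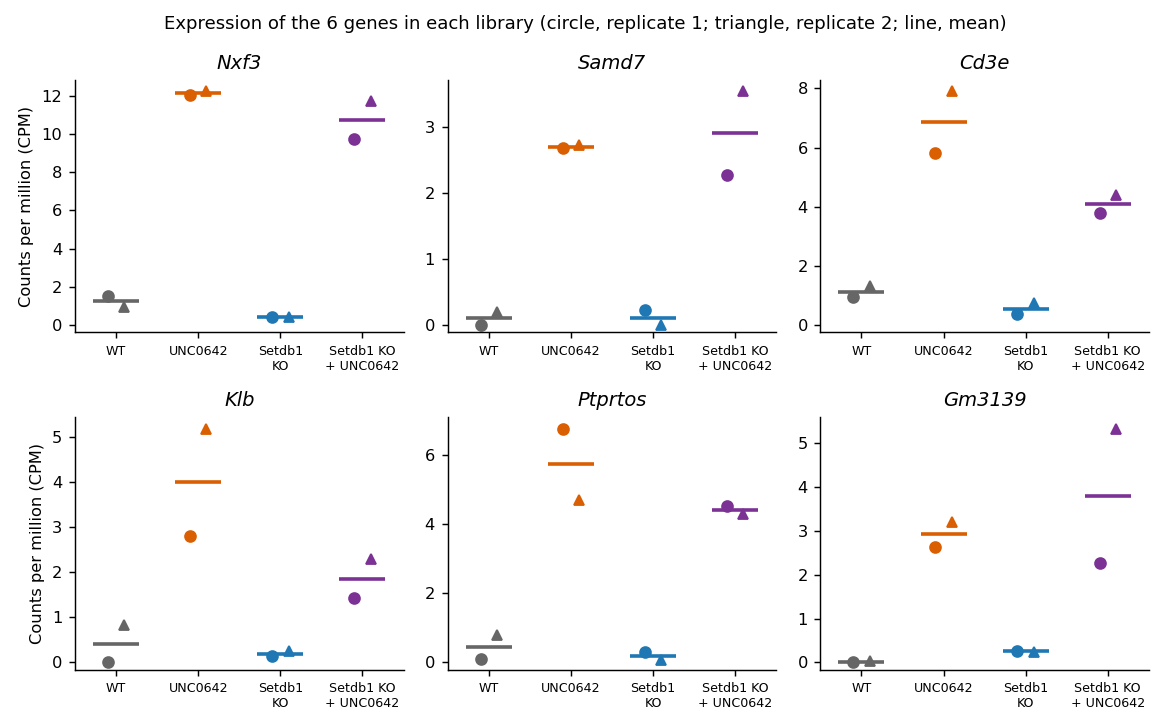
CPM of each gene in every library, with 1 panel per gene and its own linear vertical axis, circles for replicate 1, triangles for replicate 2 and a line at the mean of the 2. In all 6 panels both inhibitor conditions lie above WT and Setdb1 KO, for example 9.75 to 12.2 CPM against 0.410 to 1.54 for Nxf3.

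Expressed per kilobase of exon, the level under UNC0642 was highest for Ptprtos (9.12 CPM per kb), followed by Nxf3 (3.98), Cd3e (1.68), Gm3139 (1.01), Klb (0.880) and Samd7 (0.676). The libraries of Ptprtos, Nxf3 and Cd3e did not overlap in this order, while Klb, at 0.619 and 1.14, overlapped both Gm3139 and Samd7. In UNC0642-treated Setdb1 KO mESCs Ptprtos (7.02) and Nxf3 (3.52) were again highest and Klb (0.408) was lowest. Between them Gm3139, at 0.781 and 1.84 CPM per kb, overlapped both Cd3e and Samd7.

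The choice can be placed among all genes that answered the inhibitor. UNC0642-treated mESCs were at 4 times WT or more in both pairs for 78 of 24062 genes (0.324%), and Setdb1 KO mESCs were under 2 times WT in both pairs for 90.8% of all genes but for 8 of those 78. Pramel6 and Pramel7 were the 2 left out by symbol. Of the other 70 genes, 49 were at 2 times WT or more in the KO in both pairs and 21 in 1 pair. Most genes raised by the inhibitor by this measure were therefore also higher in the KO, and the 6 genes are the small remainder.

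**Figure D2:**
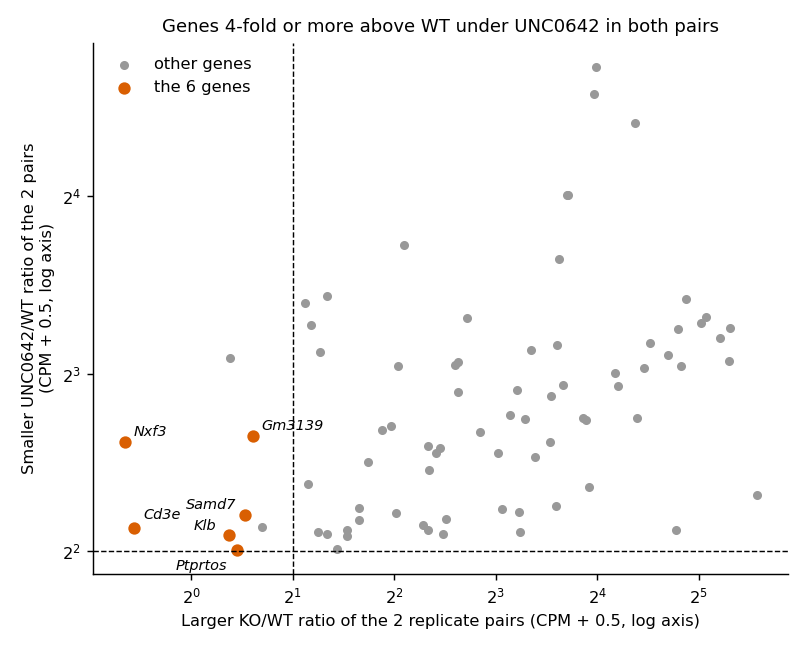
The 78 genes by the larger of their 2 KO/WT ratios (horizontal) and the smaller of their 2 UNC0642/WT ratios (vertical), both on log axes, with dashed lines at 2 and 4. The 6 genes sit left of the line at 2 together with Pramel6 and Pramel7, and Ptprtos lies closest to the line at 4.

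Several genes lay close to a limit. Just inside the inhibitor limit of 4 were Ptprtos (4.02), Klb (4.26) and Cd3e (4.38), by their smaller ratio, and just outside were Plek (3.89), Ddx60 (3.82) and Ccser1 (3.81). Just inside the KO limit of 2 were Gm3139 (1.52), Samd7 (1.45) and Ptprtos (1.36), by their larger ratio, and just outside were LOC100862015 (2.18), Pdha2 (2.22) and Gm16367 (2.27). With the pairs crossed, 4 of the 6 genes were chosen again, and Dcc and Plek took the places of Cd3e and Klb. With 0.1 CPM added in place of 0.5, Nxf3 and Cd3e were chosen again among 26 genes, and with 1 CPM added Nxf3 was chosen again among 4.

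The combined condition was compared with WT mESCs to ask whether the genes were also high when both treatments were applied. UNC0642-treated Setdb1 KO mESCs had more Gm3139 and Nxf3 RNA than WT mESCs, and for the other 4 genes the difference was in the same direction but missed the adjusted threshold. Only the WT libraries of this comparison took part in the choice. They had been required to be low against the UNC0642-treated libraries, which builds in a higher value in other libraries. With the study's thresholds, which ask for more than 10-fold and an adjusted p below 0.05, edgeR called 1 of the 6 genes higher, against 2.61% of the 15313 genes tested. This was Gm3139, with a log2 fold change of 7.04 (SE 1.00, adjusted p = 0.00703, 0.00149 with the replicate block). Its WT libraries held 1 count in all, so the fitted value depends on the prior count, and the ratio of summed levels was 161 with a counting interval of 28.5 to 6405.

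Nxf3 passed the same adjusted p at a fold change just under 10, with a log2 fold change of 3.28 (SE 0.58, edgeR adjusted p = 0.0154). The block gave 3.33 (adjusted p = 0.00133), a call. Samd7 had a log2 fold change of 4.72 (SE 1.21, adjusted p = 0.0651), and with the block 4.63 (adjusted p = 0.0193), which was also called. The block thus called 3 of the 6 genes against 4% of all genes tested. DESeq2 called Gm3139, Samd7 and Ptprtos, against 3.43% of genes on the 4 libraries compared and 3.6% on all 8. DESeq2 with a block called 4 (4.11% of genes), edgeR without the expression filter 2 (2.42%) and edgeR at more than 2-fold 2 (3.08%).

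The remaining genes were less certain in edgeR's test. Ptprtos stood at 3.43 on the log2 scale (SE 0.96, adjusted p = 0.0886, 0.0280 with the block) and Cd3e at 2.03 (SE 0.58, adjusted p = 0.0939, 0.0173 with the block). Klb stood at 2.21 (SE 1.03, adjusted p = 0.303, 0.0841 with the block). The median over the 6 genes was 3.36 against -0.06 over all genes tested. It was also 3.36 with the WT level of Gm3139 set to 3 counts over both libraries, and it became 7.02 without WT replicate 2, where 4 of the genes have 0 or 1 count in the WT library that is left. None of the 6 was called by edgeR without WT replicate 1 or without WT replicate 2. At an unadjusted p under 0.05 edgeR had 5 of the 6 genes, all but Klb, against 9.37% of genes. In CPM with 0.5 added, Gm3139, Nxf3 and Samd7 were at 4 times WT or more in both pairs, as were 1.56% of all 24062 genes, and all 6 were at 2 times or more, as were 4.06%. All 6 genes passed the expression filter, but Samd7, Klb, Ptprtos and Gm3139 only through the conditions in which they were high. Nxf3 and Cd3e, at 0.940 CPM or more in both WT libraries, reached it in WT as well. Both combined libraries were above both WT libraries for 15.9% of all genes tested.

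UNC0642-treated Setdb1 KO mESCs were then compared with Setdb1 KO mESCs, which gives the response to the inhibitor once Setdb1 was lost. In this comparison the log2 fold changes of the 6 genes were between 3.03 and 4.75, with a median of 4.19 against -0.02 over all genes tested. Nxf3 had 4.75 (SE 0.62) and Ptprtos 4.53 (SE 1.03). Samd7 had 4.47 (SE 1.17), Gm3139 3.91 (SE 0.76), Klb 3.33 (SE 1.12) and Cd3e 3.03 (SE 0.61). The KO libraries had been required to be low by the choice, which builds in a higher value in other libraries.

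No gene in the genome passed edgeR's adjusted threshold in this comparison (0% called), and Nxf3 had the lowest adjusted p of the 6 at 0.177. At an unadjusted p under 0.05, 430 genes (2.81%) were higher and all 6 genes were among them. With the replicate block 14 genes (0.0914%) were called higher, and Nxf3 was among them with a log2 fold change of 4.78 (adjusted p = 0.00791). DESeq2 on the same 4 libraries called 55 genes (0.359%), including Nxf3, Samd7, Ptprtos and Gm3139, and on all 8 libraries it called 52 (0.34%), 4 of the 6 genes among them. DESeq2 with a block called 70 (0.457%), with all but Cd3e, and edgeR without the expression filter 5 (0.0258%), with Nxf3. In CPM with 0.5 added, Nxf3 and Ptprtos were at 4 times Setdb1 KO or more in both pairs (0.299% of all genes), and all 6 at 2 times or more (1.35%). Both combined libraries were above both KO libraries for 9.19% of all genes tested and for each of the 6.

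The comparison with UNC0642-treated mESCs asks what loss of Setdb1 did on top of the inhibitor. The log2 fold changes were 0.55 (SE 0.65) for Gm3139, 0.28 (SE 0.95) for Samd7 and 0.02 (SE 0.52) for Nxf3. They were -0.20 (SE 0.85) for Ptprtos, -0.52 (SE 0.55) for Cd3e and -0.88 (SE 0.96) for Klb. None was called by edgeR (adjusted p = 0.9998 for each), where 0.699% of all genes tested were called in either direction. The SEs leave room for differences larger than themselves, so equality was not shown. The UNC0642 libraries had been required to be high by the choice, which builds in a lower value in other libraries. In CPM, Cd3e, Klb, Nxf3 and Ptprtos had both combined libraries below both UNC0642-treated libraries, as had 25.2% of all genes tested. CPM uses total counts, under which the median log2 fold change of all genes tested was -0.26, against -0.05 in the main fit. With totals scaled by the TMM factors of the edgeR fit, Cd3e and Klb kept this order and Nxf3 and Ptprtos overlapped.

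**Figure D3:**
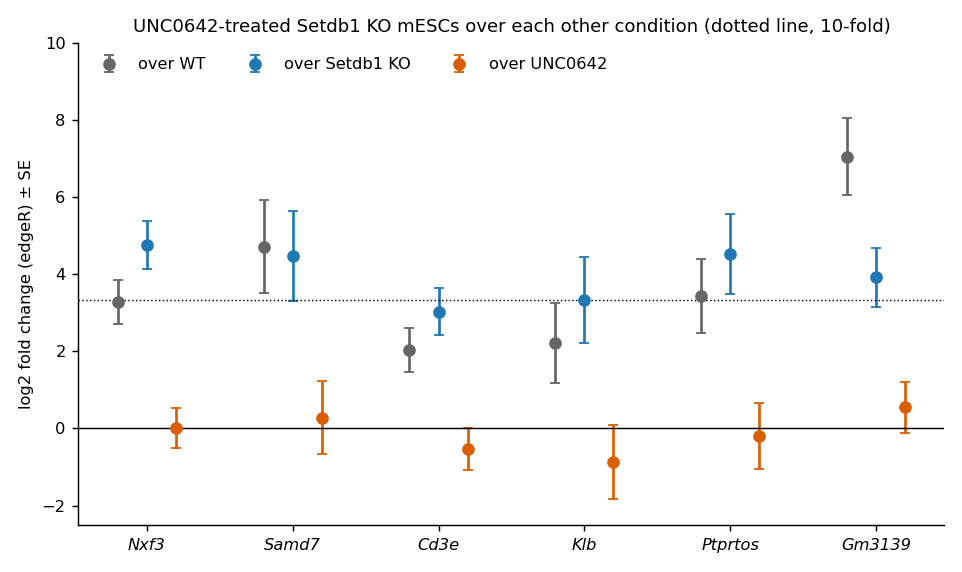
Log2 fold change of each gene in UNC0642-treated Setdb1 KO mESCs over WT, Setdb1 KO and UNC0642-treated mESCs from the edgeR fit, with bars of 1 SE on each side, a solid line at 0 and a dotted line at 10-fold. The values over WT and over Setdb1 KO lie between 2.03 and 7.04, and those over UNC0642-treated mESCs between -0.88 and 0.55.

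Whether the response to UNC0642 itself differed with the genotype was tested as the interaction of the 2 treatments. By the labels, the different days of 4-OHT in the KO and the combination enter this interaction too. No gene was called in edgeR's fit with an adjusted p (0% of genes), and 28 genes (0.183%) were higher and 91 (0.594%) lower at an unadjusted p under 0.05, the 6 genes not among them. The WT, UNC0642-treated and Setdb1 KO libraries that enter it made the choice, so its values are a description. For Nxf3 the interaction was 1.49 on the log2 scale (SE 0.78, edgeR unadjusted p = 0.0867, 0.0270 with the block, adjusted p = 1 with the block). For Gm3139 it was -2.58 (SE 1.24, unadjusted p = 0.0665), and with 1 count over both WT libraries it lay between -4.85 and -1.05 across the settings tried. The other 4 genes were between 0.03 and 0.90, and of these Klb, Ptprtos and Samd7 changed sign when single libraries were left out.

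Genes that were also higher in the KO stood at other levels in the combined condition. The 6 genes had a median ratio of combined to UNC0642-treated levels of 0.756 in pair 1 and 0.939 in pair 2 (CPM with 0.5 added). For the 49 genes that were at 2 times WT or more in the KO in both pairs, the medians were 1.59 and 2.39, and for the 21 genes with 1 such pair they were 1.10 and 1.59. The median ratio of combined to WT levels was 5.28 and 4.75 for the 6 genes and 47.3 and 18.4 for the 49. The KO libraries that divide these classes share the Setdb1 deletion with the combined libraries, so the classes were set side by side without a test. Pramel6 and Pramel7, which met the same ratios but were left out by symbol, stood lower, at medians of 0.202 and 0.446.

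Choosing genes in 1 replicate and measuring them in the other gives values that the choice did not use, with 1 library per condition and hence no test. Chosen in replicate 1 alone, 32 genes met the rule, and in replicate 2, 9 of them (28.1%) were at 4 times WT or more under UNC0642, against 0.686% of all genes. In the combined condition of replicate 2, 12 of the 32 (37.5%) were at 4 times WT or more, against 3.07% of all genes, and 11 were at 4 times Setdb1 KO or more, against 1.03%. Chosen in replicate 2 alone, 55 genes met the rule, and in replicate 1, 23 of them (41.8%) were at 4 times WT or more under UNC0642, against 0.64% of all genes. In the combined condition of replicate 1, 23 of the 55 were at 4 times WT or more, against 2.22% of all genes, and 9 at 4 times Setdb1 KO or more, against 0.424%. On the KO side, 33 of the 55 (60.0%) were under 2 times WT in the KO of replicate 1, where 94.5% of all genes were, and 28 of the 32 (87.5%) in the KO of replicate 2, where 94.0% of all genes were. The whole rule was met again in replicate 2 by 6 of the 32 (18.8%), against 0.245% of all genes. In replicate 1 it was met again by 6 of the 55 (10.9%), against 0.145% of all genes. These shares of all genes run over 24062 genes, including those that failed the expression filter. The 6 genes are those that met the rule both times, and most genes chosen in 1 replicate did not meet it in the other.

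The partners of each product were also looked up, from a short list drawn up once the 6 genes were known. For RNA export, Nxf1 was at a log2 fold change of 0.06 (SE 0.40) under UNC0642 and 0.18 (SE 0.40) in the combined condition. Nxf2, a family member known from germ cells, rose by 3.87 (SE 0.77, edgeR adjusted p = 0.0254) in the combined condition over WT. Unlike Nxf3, Nxf2 was at 0.970 and 2.19 CPM in Setdb1 KO against 0.427 and 0.318 in WT mESCs. Nxt2, which encodes a cofactor of these exporters, had a log2 fold change of 2.18 in the KO and 2.20 in the combined condition but 0.54 under UNC0642 (edgeR adjusted p = 0.101, 0.0467 and 1).

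Around Cd3e, the T cell receptor chain gene Cd3d on the same chromosome followed a like order at very low counts, 0 and 2 in WT, 10 and 21 in UNC0642-treated, 1 and 0 in Setdb1 KO mESCs and 2 and 17 with both treatments. Cd3g, the third chain gene of that cluster, had 4 and 9 counts in UNC0642-treated and 0 and 4 in the combined libraries, and 0 in all others. The other T cell genes looked up did not share this order: Cd247 was at 18.0 and 11.4 CPM in UNC0642-treated and 22.7 and 11.9 in Setdb1 KO mESCs, and Lck and Zap70 had log2 fold changes of 0.14 (SE 0.72) and -0.76 (SE 0.74) under UNC0642. Cd4 and Cd8a had at most 9 and 6 counts in any library. Of the blood cell markers, Ptprc had at most 3 counts in any library, Lyz2 at most 2 and Hbb-bs 0. Spi1 had 8 and 66 counts in UNC0642-treated libraries and 0 to 28 in the others. Cd68 had counts in every library, between 10 in WT replicate 1 and 75 in Setdb1 KO replicate 1. Without Cd3e the blood marker list was summed at 0.855 and 2.91 CPM in WT and 1.63 and 4.63 in UNC0642-treated libraries. It was at 2.95 and 4.26 CPM in Setdb1 KO and 1.26 and 2.78 in combined libraries. The UNC0642-treated range overlapped the others, and both KO libraries lay above both WT and both combined libraries.

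For Klb, the receptor genes through which beta-Klotho acts, Fgfr1, Fgfr2, Fgfr3 and Fgfr4, had log2 fold changes of -0.49, -0.32, -0.11 and 0.01 under UNC0642 and none was called. For Samd7, the photoreceptor regulator gene Otx2 was at a log2 fold change of 0.00 under UNC0642 and 2.56 in the KO (SE 0.56, edgeR adjusted p = 0.0821). Samd7 itself was at 0.25 (SE 1.31) in the KO. For Ptprtos, the host gene Ptprt was at 0.427 and 0.637 CPM in WT and 0.420 and 5.37 in the combined libraries, so a high level came from 1 library, while Ptprtos was at 4.54 and 4.30 in the same 2 libraries.

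Neighbouring genes were compared to see whether whole regions moved. The window of 300 kb was not measured between start sites, which lay up to 350 kb apart. Of 43 tested genes within 300 kb of a chosen gene, 3 (6.98%) had a fitted log2 fold change of 2 or more under UNC0642, against 3.39% of all genes tested. These were Cd3d, at 3.55, and beside Gm3139 the genes A430089I19Rik, at 4.31, and AA792892, at 5.10, of which A430089I19Rik is a Prame gene in RefSeq. The 12 tested neighbours of Nxf3 were between -0.24 and 1.16, the 9 of Klb between -0.20 and 0.15, and the 8 of Samd7 between -0.35 and 1.11. Smaller differences of the same order were present among them. Lrriq4 near Samd7 was at 1.11, and Bex2 and Arxes1 near Nxf3 were at 0.30 and 0.75. In CPM these neighbours also had all 4 libraries with inhibitor above the 4 without it, as had Cd3d and AA792892. Lrriq4 was at 2.39 and 3.82 CPM in WT, 5.94 and 7.74 in UNC0642-treated, 2.61 and 1.28 in Setdb1 KO mESCs and 7.31 and 7.77 with both treatments. These genes were singled out after their values were seen. In CPM the same order held for 2.06% of all genes tested. With totals scaled by the TMM factors of the edgeR fit, Bex2 and Arxes1 did not keep it. Arxes1 was at 14.5 CPM in its lowest library with inhibitor and 14.2 in its highest without.

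**Figure D4:**
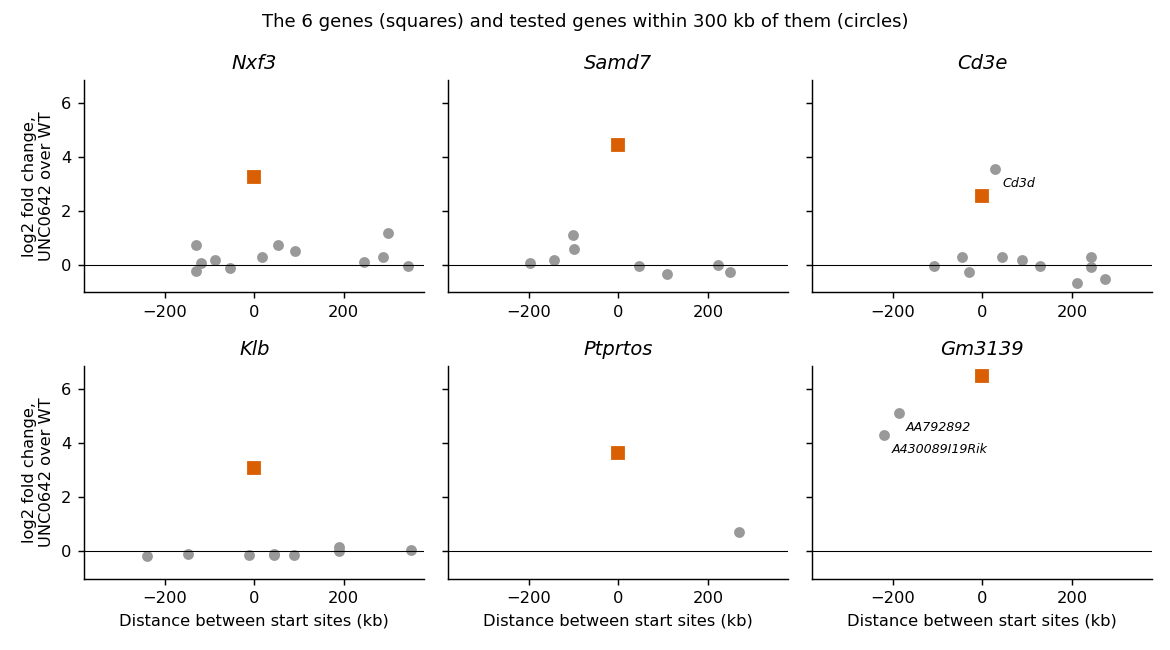
Log2 fold change of UNC0642-treated over WT mESCs (vertical) for each of the 6 genes (squares) and the tested genes within 300 kb of it (circles). The horizontal axis is the distance between start sites in kb, which reached 350 kb because the window was not measured between start sites. Circles lie at or under 1.16 around Nxf3, Samd7 and Klb, and the circles at 3.55 or above are Cd3d, A430089I19Rik and AA792892.

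The gene lists used for this system held none of the 6 genes except Cd3e. Of 34 germline genes tested, edgeR called 0 higher under UNC0642, 6 in the KO and 8 in the combined condition, where it called 0.731% of all genes in either direction and 2.61% higher. Of 19 two-cell genes it called 0, 1 and 17 in the same 3 comparisons. Of 12 Mage genes, X-linked cancer-testis genes, it called 0, 0 and Magea8 alone. Among 10 genes of H3K9 methylation and 12 of the PRC1.6 complex, a repressor of germline genes, none was called in these comparisons. No gene at all was called under UNC0642 alone by this test (0%), while 458 (2.99%) were higher at an unadjusted p under 0.05, so a count of 0 there says little of a list. In this contrast DESeq2 called 81 genes (0.529%) on the 4 libraries and 94 (0.614%) on all 8, both including Samd7, Ptprtos and Gm3139, and 110 (0.718%) with a block. The edgeR fit called 22 (0.144%) with the block and 44 (0.227%) without the expression filter, both including Gm3139. UNC0642 over WT chose the 6 genes, so nothing follows from their being among these calls. Ehmt2 and Ehmt1, the genes of the inhibited enzymes, had log2 fold changes of -0.79 (SE 0.47) and -0.32 (SE 0.36) under UNC0642 and were not called.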

How the data were processed

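Poly(A) RNA-seq of mESCs covered 4 conditions with 2 libraries each, grouped by the sample labels. The authors trimmed reads with Trim Galore 0.3.7, mapped them to mm10 with TopHat2 and counted them with TEtranscripts; the deposited files hold raw counts for genes and for transposable element subfamilies. They ran it with default parameters and do not name the strand setting.

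CPM used the total of all rows, and ratios were formed within replicate numbers. Features were filtered with filterByExpr (minimum count 10, minimum total 15), which left 15313 genes and 932 subfamilies, and TMM factors were 0.810 to 1.20. edgeR 4.0.16 (R 4.3.3) fitted its quasi-likelihood model to all 8 libraries, with Benjamini-Hochberg adjustment over all features and calls asked for an adjusted p below 0.05 and more than 10-fold. The prior count was 0.125. DESeq2 1.42.0, the replicate block and other settings were alternatives, and the fits were tested on simulated data. Counting intervals cover counting error only. Tables and plots were made in Python 3.11.15 with pandas 2.3.3, numpy 2.4.6 and matplotlib 3.10.9.

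Replicate deviations correlated in each of 6 pairs of conditions (0.285 to 0.663, median 0.587 across genes). The ratios and the replicate block therefore treated the numbers as pairing the libraries, from the data and not from a label. The main edgeR fit had no replicate term. The genes and lists were chosen with earlier results of these data known. Named genes were all 6 members, the nearest genes outside each limit, Setdb1, Ehmt1 and Ehmt2. Partner and neighbouring genes were added once the members were known.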

Additional observations from a re-analysis of the deposited data

How the results depend on the processing

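The number of genes chosen was 26 with 0.1 CPM added, 26 at an inhibitor limit of 3 and 0 at a limit of 8. It was 4 with totals scaled by TMM, as in the edgeR fit, which lost Klb and Ptprtos, and 5 at a KO limit of 1.5, which lost Gm3139. It lay between 32 and 55 when 1 replicate was used. It was 5 when current RefSeq symbols were checked and 8 with no symbol left out, both chosen after seeing the data.

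The replicate block, which follows the pairing, called 1 of the 6 genes in UNC0642-treated over WT mESCs (0.144% of all genes tested). It called 3 in the combined condition over WT (4%) and 1 over Setdb1 KO (0.0914%), and changed no other count. DESeq2 on all 8 libraries called 3 in UNC0642-treated over WT (0.614%), 3 in the combined condition over WT (3.6%) and 4 over Setdb1 KO (0.34%). On only the 4 libraries compared it called 3, 3 and 4 (0.529%, 3.43% and 0.359%). With a block, added after seeing the data, DESeq2 called 4, 4 and 5 (0.718%, 4.11% and 0.457%). Without the expression filter edgeR called 1, 2 and 1 (0.227%, 2.42% and 0.0258%). With the filter and a fold change above 2, edgeR called 2 in the combined condition over WT (3.08%). The median there was 3.16 with total counts normalization and 3.20 with a prior count of 2. Total counts normalization moved the median of all genes from -0.06 to -0.23 over WT. Nxf3 over UNC0642-treated mESCs turned to -0.18 under it, and the interaction of Klb to -0.012 with a prior count of 2. The causes were not tested.

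Leaving out 1 library at a time, with the remaining library of that condition assumed to vary like the others, gave medians of 3.67 to 4.52 for the combined condition over Setdb1 KO, -0.29 to 0.25 over UNC0642-treated, 3.22 to 7.02 over WT, -1.28 to 2.83 for the KO over WT, 3.23 to 7.30 for UNC0642 over WT and -2.78 to 0.91 for the interaction. The ends at 7.02, 2.83, 7.30 and -2.78 came without WT replicate 2. Calls over WT in the combined condition were 0 to 2, with 0 without either WT library and 2 without KO replicate 1, KO replicate 2 or combined replicate 2, and the other calls stayed at 0. Directions turned in the KO over WT for Samd7 (-4.29 to 4.48), Klb (-1.94 to 4.97) and Ptprtos (-2.89 to 1.17). They turned over UNC0642-treated mESCs for Nxf3 (-0.12 to 0.20) and Ptprtos (-0.55 to 0.31), and in the interaction for Klb (-5.86 to 1.06), Ptprtos (-1.36 to 2.69) and Samd7 (-4.20 to 4.58). The floor of 3 counts limits what the WT and KO libraries can show.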
